A study of Mus musculus with 4 samples.

Results

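Of the 8972 bins of 5 kb that the authors listed as differentially hydroxymethylated in mouse embryonic fibroblasts (MEFs) without LSH, 737 lay at gene promoters and were not on the matching list of embryonic stem (ES) cells. These MEF-only promoter bins are the subject here. Members were chosen by the authors' differential calls and by position: a bin was on the MEF list, was absent from the ES list at the same position, and overlapped the 1 kb either side of a gene start in the mm9 annotation. They were 737 of the 17111 bins on either list, and the promoter windows they reached belonged to 797 genes. The study had 4 libraries, 1 for each of wild-type ES cells, LSH knockout ES cells, wild-type MEFs and LSH knockout MEFs. LSH is the chromatin remodeler encoded by Hells. ES cells were grown in serum with LIF and MEFs in serum medium without it, and the labels name no strain, passage, sex or kind of knockout allele. Each library held genomic DNA enriched for 5-hydroxymethylcytosine (5hmC) and sequenced, and the labels do not name the reagent used for the enrichment.

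The deposited lists hold positions only. They give no level, fold change, p-value or direction, so "altered" means listed as differential and leaves unsaid in which genotype the 5hmC was greater. No value per library was used and the depth is unknown. With 1 library per group there is no replicate error, and no difference between groups of bins was tested. A bin missing from the ES list may have fallen short of the authors' threshold there, so "MEF-only" describes the lists and not a cell type. Brackets give exact 95% binomial intervals, which cover counting error over bins or genes, and these are not replicates. No expression was measured, so the labelled cell types could not be checked against marker genes.

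5hmC is made from 5-methylcytosine by the TET enzymes and lies almost wholly at CpG, a cytosine followed by a guanine. Promoters differ widely in CpG. CpG-rich promoters are usually free of methylation at the gene start itself, with methylation and 5hmC on their flanks, whereas CpG-poor promoters are often methylated until the gene is active. LSH is known for promoting DNA methylation, chiefly at repeats and at promoters silenced during development.

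The promoters of 8 members are shown first, because they span the CpG range in which altered bins were found. Each run is the 250 bases before the gene start, 5′ to 3′ on the gene's strand, read from the mm9 genome, with every CpG in capitals. Each lies wholly inside its altered bin and holds no annotated exon. Cebpb, a transcription factor gene of fat and inflammatory cells (chr2:167514165-167514414, plus strand), Tle4, a Groucho corepressor (chr19:14672474-14672723, minus strand), and Rictor, a subunit of TOR complex 2 (chr15:6658131-6658380, plus strand), had the densest promoter windows among protein-coding members that could be shown. Lef1, the transcription factor that answers WNT signals (chr3:130813139-130813388, plus strand), and Rspo1, a secreted enhancer of WNT signalling (chr4:124663424-124663673, plus strand), belong to the WNT list described further on. BC048671 (chr6:90250963-90251212, plus strand), Mmp12, the macrophage elastase (chr9:7344131-7344380, plus strand), and Taar7a, a trace amine receptor (chr10:23713499-23713748, minus strand), had the sparsest windows among those that could be shown.
Cebpb: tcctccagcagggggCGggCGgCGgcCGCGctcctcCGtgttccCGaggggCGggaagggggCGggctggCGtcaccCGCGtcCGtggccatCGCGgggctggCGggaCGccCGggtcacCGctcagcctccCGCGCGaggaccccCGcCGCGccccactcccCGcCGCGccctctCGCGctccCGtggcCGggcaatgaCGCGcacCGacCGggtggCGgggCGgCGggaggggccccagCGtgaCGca
Tle4: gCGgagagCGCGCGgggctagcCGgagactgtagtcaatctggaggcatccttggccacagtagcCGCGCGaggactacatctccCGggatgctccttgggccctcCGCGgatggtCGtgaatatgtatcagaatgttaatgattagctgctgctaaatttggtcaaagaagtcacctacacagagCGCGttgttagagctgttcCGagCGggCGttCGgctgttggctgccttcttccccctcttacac
Rictor: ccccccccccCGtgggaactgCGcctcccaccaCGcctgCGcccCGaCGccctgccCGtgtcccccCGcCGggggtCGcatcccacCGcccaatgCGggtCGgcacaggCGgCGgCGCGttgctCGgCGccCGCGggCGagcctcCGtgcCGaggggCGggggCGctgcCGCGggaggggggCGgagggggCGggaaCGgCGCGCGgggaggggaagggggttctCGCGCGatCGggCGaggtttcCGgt
Lef1: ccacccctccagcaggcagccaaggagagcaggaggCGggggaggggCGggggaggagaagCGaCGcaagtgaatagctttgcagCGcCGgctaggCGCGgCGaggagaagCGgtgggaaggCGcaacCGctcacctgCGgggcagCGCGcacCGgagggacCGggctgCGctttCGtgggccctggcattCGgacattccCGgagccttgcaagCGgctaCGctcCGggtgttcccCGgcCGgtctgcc
Rspo1: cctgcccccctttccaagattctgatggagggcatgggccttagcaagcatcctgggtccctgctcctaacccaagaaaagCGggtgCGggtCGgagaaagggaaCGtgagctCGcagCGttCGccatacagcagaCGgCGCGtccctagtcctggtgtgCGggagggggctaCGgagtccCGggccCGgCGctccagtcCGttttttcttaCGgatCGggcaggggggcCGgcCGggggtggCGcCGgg
BC048671: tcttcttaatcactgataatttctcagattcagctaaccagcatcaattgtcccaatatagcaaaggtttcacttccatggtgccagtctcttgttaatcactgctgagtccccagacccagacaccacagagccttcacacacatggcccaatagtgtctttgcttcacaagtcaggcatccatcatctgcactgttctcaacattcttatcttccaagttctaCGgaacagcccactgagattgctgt
Mmp12: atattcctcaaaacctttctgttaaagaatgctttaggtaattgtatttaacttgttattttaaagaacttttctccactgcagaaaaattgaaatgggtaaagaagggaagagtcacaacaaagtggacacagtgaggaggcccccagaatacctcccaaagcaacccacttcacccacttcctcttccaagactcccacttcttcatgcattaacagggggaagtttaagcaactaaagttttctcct
Taar7a: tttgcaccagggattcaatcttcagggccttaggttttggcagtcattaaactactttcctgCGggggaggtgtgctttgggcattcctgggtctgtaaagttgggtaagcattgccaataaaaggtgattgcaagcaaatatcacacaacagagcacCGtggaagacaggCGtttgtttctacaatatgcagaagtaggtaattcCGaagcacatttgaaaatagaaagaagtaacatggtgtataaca
The stretch before Cebpb held 41 CpG and that before Rictor 40, against 18 for Tle4, 26 for Lef1 and 22 for Rspo1. The Taar7a stretch held 4, the BC048671 stretch 1 and the Mmp12 stretch 0. Counted over the 1 kb either side of the start, the density was 115 CpG per kb at Cebpb and 3.5 at Mmp12, yet both genes had a listed bin. The highest density of any protein-coding member was 116 per kb at Ankrd11, a chromatin regulator, where the altered bin began 897 bp inside the gene and held only 12.8 CpG per kb. Slc12a2, an ion cotransporter, had 115 per kb. The lowest density was 2.5 per kb, at BC048671 and at Klrb1f, a receptor of natural killer cells, whose bin ended 919 bp before the start.

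Altered promoter bins in MEFs were scarce at low CpG density. The median member had 16.0 CpG per kb, with quartiles of 11.8 and 24.4, against 13.8 in all promoter bins, 17.2 in ES-only promoter bins and 10.6 in MEF-only bins outside promoter windows. Median GC content was 48.6% in members and 46.0% in all promoter bins. Members made up 2.29% of the 32240 promoter bins with sequence, and MEF-only bins made up 1.68% of all bins. The ES-only list held 2.99% of promoter bins, and another 39 promoter bins (0.121%) were on both lists. Outside promoter windows 1.63% of bins were MEF-only and 1.5% ES-only. Promoter bins were sorted by CpG density into 10 groups of 3224. The MEF-only share was 0.248% in the sparsest group [0.107% to 0.488%], which held 8 members. It reached 3.54% and 3.57% [2.95% to 4.27%] in the groups from 11.4 to 16.6 CpG per kb. It was 2.36% in the next group [1.86% to 2.94%] and 3.07% in the densest [2.50% to 3.73%], whose interval overlaps that of the peak. The ES-only share followed another course at the top. It was 5.21% from 13.8 to 16.6 CpG per kb and 5.12% in the next group, and 3.10% in the densest [2.53% to 3.76%]. At equal CpG density the promoter bins were not generally ahead. In every range up to 20.4 CpG per kb the MEF-only share was higher outside promoter windows, though barely so in the sparsest. It was 4.29% there from 13.8 to 16.6 CpG per kb [4.04% to 4.55%] and 3.73% from 16.6 to 20.4 [3.40% to 4.09%]. Above 20.4 CpG per kb the promoter share was the higher one, with overlapping intervals. In the densest range 15 of 781 other bins were listed, or 1.92% [1.08% to 3.15%], an interval that overlaps that of the densest promoter bins.

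**Figure D1:**
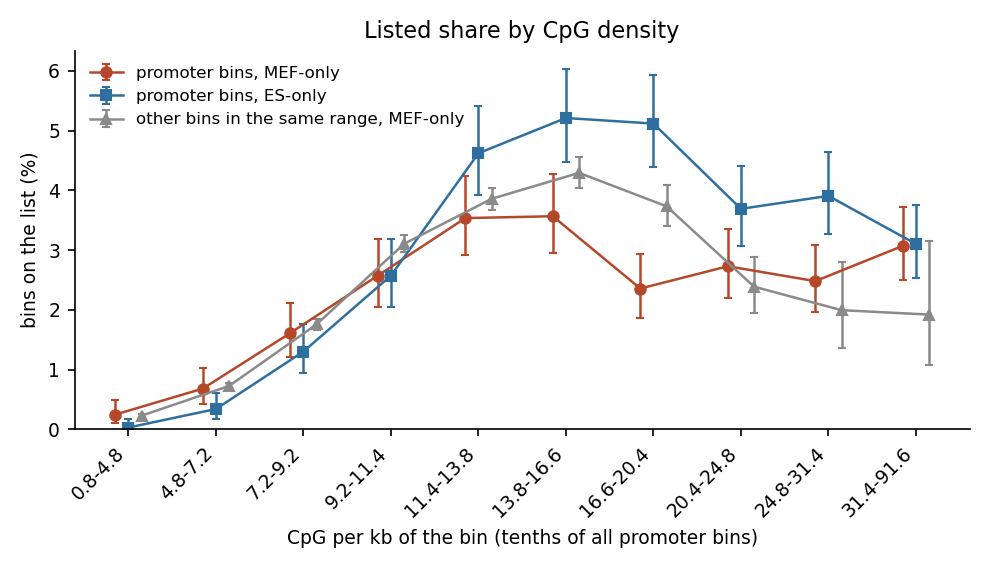
Share of bins on a list (y axis, %) by CpG per kb of the bin (x axis, 10 equal groups of all promoter bins), with exact 95% binomial intervals, for MEF-only and ES-only promoter bins and for MEF-only bins outside promoter windows in the same ranges. The MEF-only promoter share peaks at 3.57% and the ES-only share at 5.21%, both from 13.8 to 16.6 CpG per kb, and the 2 meet at 3.07% and 3.10% in the densest group.

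Promoter windows were also put into 3 classes by their densest 500 bp, in the manner used for methylation of mammalian promoters. A window is of the high class if a stretch had a CpG ratio, the observed over the expected number of CpG, above 0.75 with GC above 55%. It is of the low class if no stretch had a ratio above 0.48, and otherwise intermediate. By the richest window in the bin, 320 members were high (43.4% [39.8% to 47.1%]), 187 intermediate (25.4% [22.3% to 28.7%]) and 230 low (31.2% [27.9% to 34.7%]). Among all promoter bins the shares were 42.8%, 21.4% and 35.8%. Read the other way, 2.71% of intermediate promoter bins were members [2.34% to 3.12%], against 2.32% of high ones and 1.99% of low ones [1.75% to 2.27%]. Members were thus spread over all 3 classes, with the intermediate class above its background share, and ES-only promoter bins shared this with 29.15% intermediate [26.3% to 32.1%].

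The altered bins lay more often over the beginning of the gene than before it. Because 74 bins reached the windows of 2 gene starts and 6 those of 3 or more, position was counted over 823 pairs of a gene and a bin. The bin centre was downstream of the start, toward the gene body, in 56.6% of pairs [53.2% to 60.0%], against 49.95% for all promoter bins and 51.3% for ES-only ones [48.3% to 54.3%]. The start itself lay inside the bin in 71.7% of pairs, as in 71.6% of all. At promoters of the high class the bin lay wholly inside the transcribed side in 20.6% [16.6% to 25.1%] against 14.5% of all, and the start was in the bin in 66.5% [61.4% to 71.3%] against 71.3%. ES-only bins at high-class promoters had like values, 18.5% [15.2% to 22.3%] and 64.8% [60.4% to 68.99%]. A bin centred within the 1 kb before a high-class start was seen in 9.89% [7.02% to 13.4%], against 14.2% of all. At promoters of the low class the bin lay wholly upstream in 8.68% [5.45% to 12.96%] against 13.6%, and the start was inside it in 76.0%. Examples from the high class are Acvr1b, Bmp7, Gli2 and Bnc2, a zinc finger gene, whose altered bins began 445, 822, 196 and 990 bp into the gene. Those 4 bins held 16.6, 28.2, 25.4 and 10.4 CpG per kb, while the windows around the starts held 73.0, 71.0, 59.0 and 100.0.

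**Figure D2:**
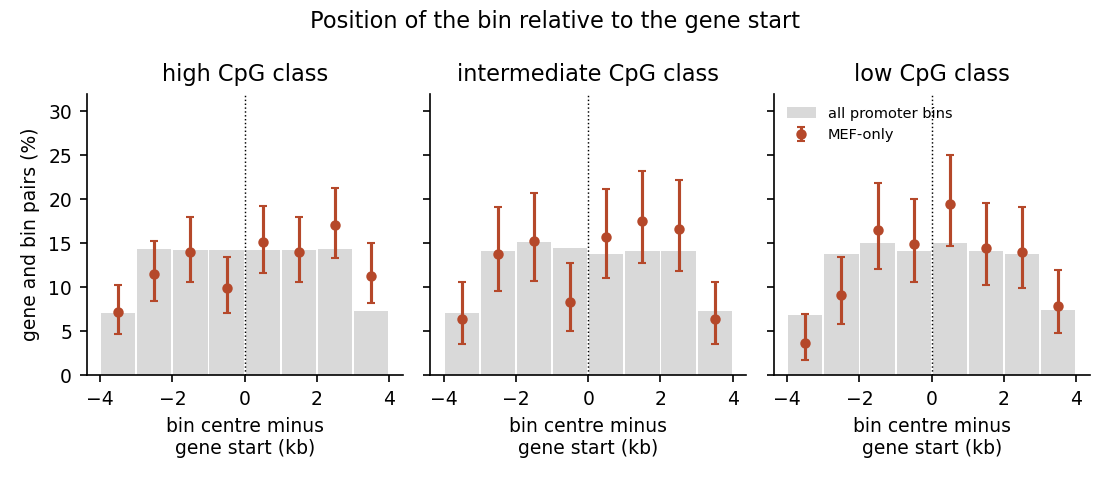
Distance from the gene start to the bin centre (x axis, kb, positive into the gene) against the share of gene and bin pairs (y axis, %) for each CpG class. Grey bars are all promoter bins and points are MEF-only bins with exact 95% binomial intervals. In the high class, points lie below the bars just before the start (9.89% against 14.2%) and above them 3 to 4 kb into the gene (11.3% against 7.27%).

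Membership was a matter of a sharp limit at 1 kb. In the last 100 bp inside it lay 24 MEF-only bins, the farthest with its edge 997 bp from the start of Gm14014. In the first 100 bp outside it lay 13, which were left out, the nearest 1006 bp from the start of Xrcc5. Their median CpG densities were 12.3 and 13.2 per kb.

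Members of the WNT list and of the TGF-beta and BMP list included ligands, a secreted enhancer, a receptor, a protease and a nuclear effector. Over all genes, 3.06% had a MEF-only promoter bin and 4.10% an ES-only one. Of 69 WNT pathway genes 4 had a MEF-only bin (5.80% [1.60% to 14.2%]), and 8 an ES-only one. The 2 ligand genes were Wnt2b and Wnt10b. The Wnt2b bin (chromosome 3, 104765001 to 104770000) lay wholly upstream, 374 bp from the start. The Wnt10b bin (chromosome 15, 98605001 to 98610000) covered the start, 778 bp of exon and 2803 bp of intron. Rspo1 (chromosome 4, 124660001 to 124665000) had an altered bin with 3673 bp before the start. The MEF bin directly beside it was also on the ES list. Lef1 (chromosome 3, 130810001 to 130815000) had 1208 bp of exon in its bin and an ES bin beside it. The sequences of both are printed above. No frizzled receptor, Dickkopf or axin gene was a member.

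Of 65 genes of the TGF-beta and BMP pathways, which control matrix production and tissue patterning, 5 had a MEF-only promoter bin (7.69% [2.55% to 17.1%]). The ligand genes were Tgfb2, Bmp7 and Bmp10. Tgfb2 (chromosome 1, 188525001 to 188530000) was covered from 129 bp before its start, with 1564 bp of exon. Bmp7 (chromosome 2, 172760001 to 172765000) was altered within its intron only. Bmp10 (chromosome 6, 87375001 to 87380000), a ligand of the heart, had 3995 bp before the start in its bin. Acvr1b (chromosome 15, 101005001 to 101010000), an activin receptor, was altered in its intron. Bmp1 (chromosome 14, 70915001 to 70920000) encodes a protease that trims procollagen and frees TGF-beta ligands, and its bin held 325 bp of exon and 4675 bp of intron. The SMAD genes had no member.

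In the list of 50 extracellular matrix and fibroblast genes 3 had a MEF-only promoter bin (6% [1.26% to 16.6%]). Eln, the elastin gene (chromosome 5, 135220001 to 135225000), had 1889 bp of upstream sequence and 3026 bp of intron in its bin. Fbln1, which encodes the elastic fibre protein fibulin 1 (chromosome 15, 85035001 to 85040000), had 1378 bp upstream and 3358 bp of intron. S100a4 (chromosome 3, 90405001 to 90410000), a calcium-binding protein gene used as a fibroblast marker, lay whole inside its bin with its 2276 bp, and the bin also held 1624 bp of its neighbour S100a3. No collagen gene of the list was altered at its promoter. Col8a1, a collagen gene outside the list that was looked up after the members were known, was a member. In this list Eln was of the intermediate CpG class, Fbln1 high and S100a4 low, with windows of 28.0, 42.5 and 10.5 CpG per kb.

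Homeobox and other developmental regulators gave small counts. Of 39 Hox genes, which set position along the body axis, 3 were members (7.69% [1.62% to 20.9%]), from 3 clusters. Hoxa2 (chromosome 6, 52110001 to 52115000) and Hoxc11 (chromosome 15, 102785001 to 102790000) had 2011 and 1878 bp of exon in bins that began 412 and 143 bp after the start. Hoxb3 (chromosome 11, 96180001 to 96185000) had 4639 bp before its annotated start. Of 89 other developmental transcription factor genes 4 were members (4.49% [1.24% to 11.1%]). These were Gata5, a factor of heart and gut endoderm (chromosome 2, 180070001 to 180075000, wholly upstream), and Gli2, an effector of Hedgehog signalling (chromosome 1, 120945001 to 120950000, wholly inside the gene). The others were the homeobox gene Six4 (chromosome 12, 74210001 to 74215000) and Tbx4, a hindlimb factor (chromosome 11, 85700001 to 85705000).

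Marker genes of other cell types were members in at most 1 case per list. With lists of this size that is close to the 3.06% of all genes, and each list's interval holds that share. The members were Kdr, the VEGF receptor gene (of 25 endothelial genes, 4.0%, bin wholly upstream), and Krt7 (of 30 epithelial, 3.33%). The others were Actc1 (of 26 muscle, 3.85%, wholly upstream) and Nes (of 32 neural, 3.125%, bin starting 1 bp past the start). None of 32 immune genes was a member [0% to 10.89%]. Of 31 pluripotency genes only Dppa5a was reached, with 142 bp of the gene in a bin that began 984 bp from its start. ES-only promoter bins reached 4 of these 31 (12.9% [3.63% to 29.8%]), namely Dppa3, Lefty2, Otx2 and Tcl1, against 4.10% of all genes. This was not particular to pluripotency genes. ES-only bins reached 5 of the 30 epithelial genes (16.7% [5.64% to 34.7%]) and 4 of the 26 muscle genes (15.4% [4.36% to 34.9%]). They reached 2 of the neural, 2 of the immune and 1 of the endothelial genes. Of 39 germline genes Tex14 was the member, sharing a bin and a head-to-head promoter with the DNA repair gene Rad51c (chromosome 11, 87215001 to 87220000). Of 52 imprinted genes the member was Slc22a2, a cation transporter gene of the Igf2r cluster (chromosome 17, 12775001 to 12780000).

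None of 43 genes for DNA methylation and hydroxymethylation [0% to 8.22%] and none of 41 genes for SNF2 remodelers and LSH partners [0% to 8.60%] had a MEF-only promoter bin. That covers Tet1, Tet2, Tet3, the Dnmt genes and Hells itself. ES-only promoter bins reached 4 of the 43 (Dppa3, Idh2, Tdg and Zbtb38), or 9.30% [2.59% to 22.1%] against 4.10% of all genes. There was none either among 36 canonical histone genes or 24 clustered protocadherins. Cdt1, the licensing factor of DNA replication (chromosome 8, 125090001 to 125095000), was the member among 50 cell cycle genes. Of 372 Zfp symbols 6 were members (1.61% [0.594% to 3.48%]), including Zfp423, a regulator of fat cell and neural development, and Zfp532, which had 2 bins. Of 151 symbols beginning Rpl or Rps 4 were members (Rpl21, Rplp0, Rps10 and Rpl23a-ps3). Of 1448 olfactory and vomeronasal receptor genes, whose windows had a median of 4.5 CpG per kb, 3 were members (0.207% [0.0428% to 0.604%]). The intervals of the small lists are wide, and apart from the receptor list and no other, each list's interval holds the 3.06% of all genes.

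**Figure D3:**
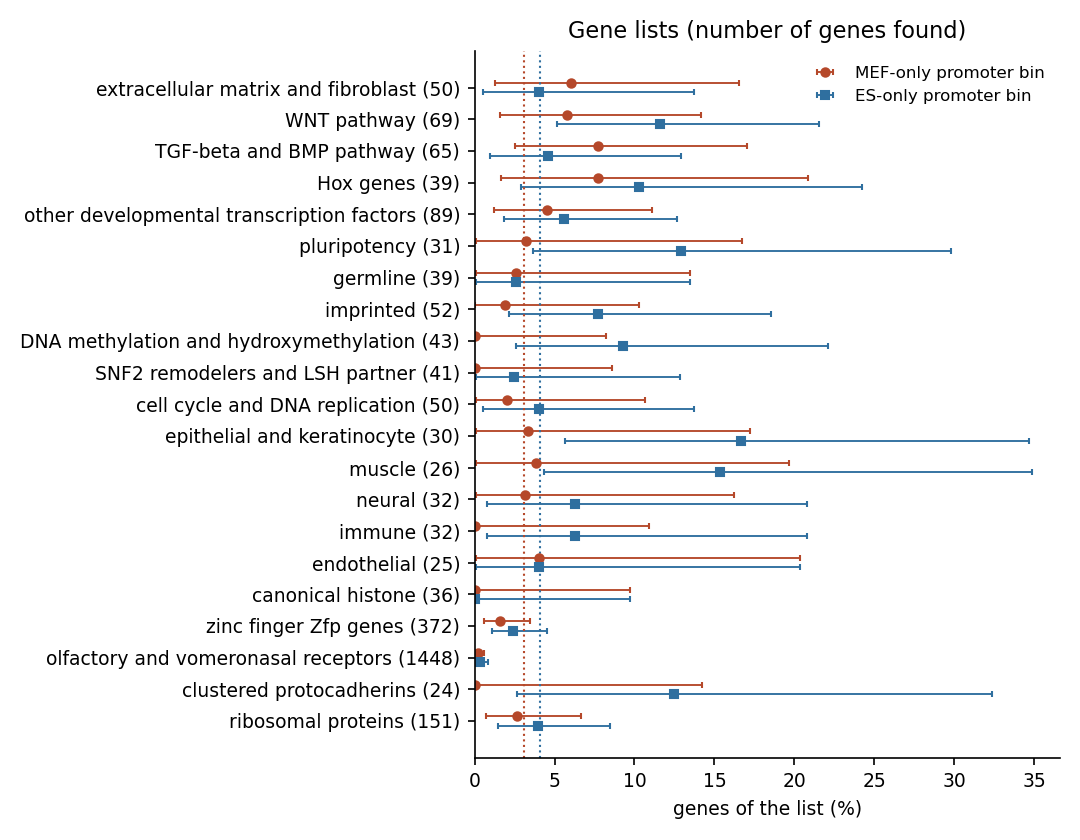
Share of each gene list (x axis, %) with a MEF-only promoter bin (circles) or an ES-only promoter bin (squares), with exact 95% binomial intervals and the number of genes found beside each list (y axis). Dotted lines mark all genes, at 3.06% and 4.10%, and the receptor list at 0.207% is the one list whose MEF-only interval stays off its line.

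At 22 genes the promoter held 1 MEF-only bin and 1 ES-only bin side by side. Both can be reached where a promoter window crosses a bin boundary, as it did at 453 of the 797 member genes (56.8%), so these 22 are 4.86% of those 453. Among all genes 39.7% had such a window. A window over 2 bins has more chances to reach a listed bin, which raises the share among members. Of all promoter bins 2.99% were ES-only, and whether 4.86% differs from that was not tested. They include Vegfa, the vascular growth factor, Tgfb2, Wnt2b, Hdac7, a class II histone deacetylase, Lpl, which encodes lipoprotein lipase, and the cell death effector Bak1. At Vegfa (start at 46169326 on chromosome 17, minus strand) the MEF bin lay wholly upstream, 46170001 to 46175000, with 12.6 CpG per kb. The ES bin, 46165001 to 46170000, covered the start and held 52.0 CpG per kb. Wnt2b had the same order, with 16.8 CpG per kb in the upstream MEF bin and 28.0 in the ES bin over the start. Tgfb2 had the reverse order. Its MEF bin covered the start and first exon with 34.6 CpG per kb, and its ES bin (188530001 to 188535000) lay upstream with 15.6. Hdac7 (chromosome 15) had its MEF bin upstream and its ES bin in the gene, at 12.6 and 11.8 CpG per kb. Over the 22 genes the MEF bin was the upstream one in 12 and the ES bin in 10, and the MEF bin had more CpG in 13. Bre and Rbks, a head-to-head pair, share both bins, so these 2 bins count once in each order and for 2 of the 13. Whether the 2 cell types differ in the bin affected, or in which bin passed the threshold, was not tested.

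**Figure D4:**
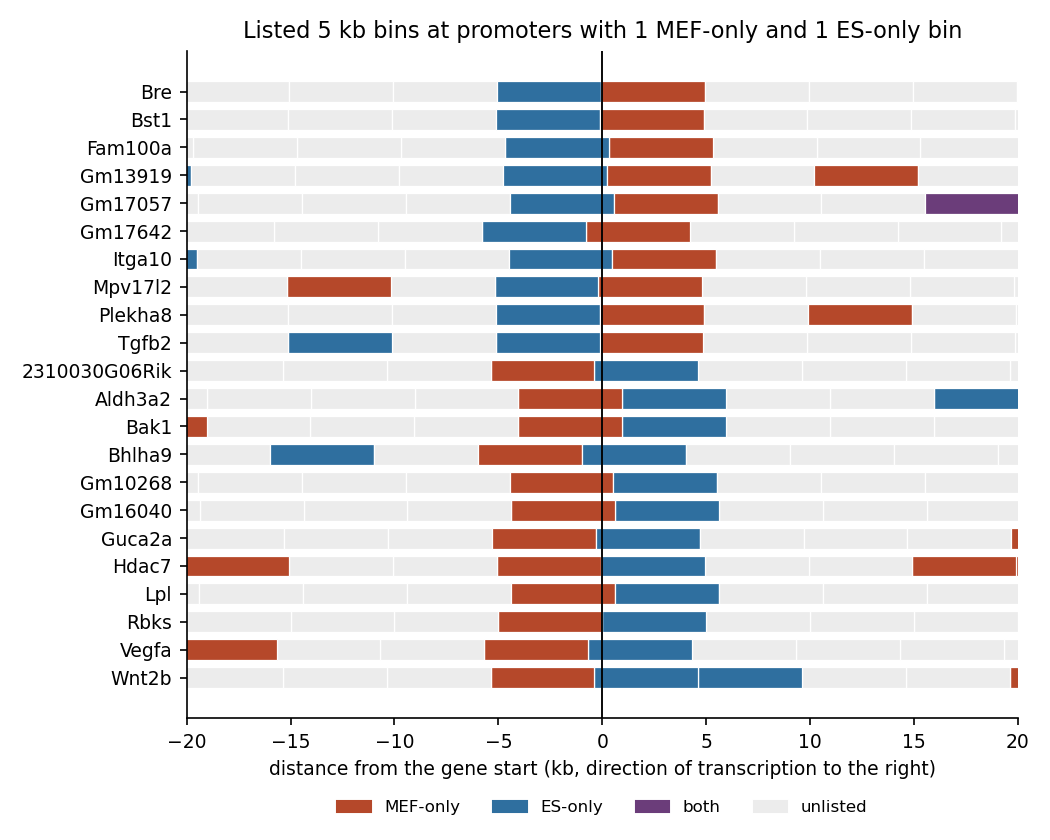
Listed 5 kb bins within 20 kb of the start (x axis, kb, direction of transcription to the right) at the 22 genes (y axis) with 1 MEF-only and 1 ES-only promoter bin. The MEF-only bin lies upstream in the 12 lower genes and downstream in the 10 upper ones.

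A further 26 genes had 2 MEF-only promoter bins, 5.74% of the 453 whose window crosses a boundary. Of all promoter bins 2.29% were MEF-only, and 4.41% lay directly beside a MEF-listed bin. They include Dact2, an inhibitor of WNT and nodal signalling (chromosome 17, 14335001 to 14345000), Prph, which encodes the neuronal filament peripherin (chromosome 15, 98880001 to 98890000), and Ptpn13, a tyrosine phosphatase gene (chromosome 5, 103850001 to 103860000). Others were the guanine exchange factor gene Dock8, the complement gene C9, the glycosyltransferase gene Mgat3, Klhl3, Lrrc17, Slc48a1 and Slc25a28. Of the 26, 5 are predicted genes at the proximal end of chromosome 9 (3000001 to 3040000), where between 72.7% and 97.5% of the 32-base words in the altered bins were found at several places in the genome. A short read from there has several possible places. In all, 12 of the 737 members had over 50% such words, and 1 of 964 ES-only promoter bins did, against 2098 of all 32240 promoter bins.

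Of the members, 144 directly touched another MEF-listed bin (19.5% [16.7% to 22.6%]), against 4.41% of all promoter bins and 20.8% of MEF-only bins outside promoters. ES-only promoter bins touched another ES bin in 9.34% of cases [7.57% to 11.4%]. An ES-listed bin lay directly beside 68 members (9.23% [7.24% to 11.6%]), against 5.99% of all promoter bins. The longest run with a member had 6 bins, at 0610012H03Rik (chromosome 2, 105050001 to 105080000), 1 of them also on the ES list. The repeated array on chromosome 9 followed with 5. Runs of 3 included Ext1, which encodes a heparan sulfate polymerase (chromosome 15, 53165001 to 53180000), Dact2, C9, Hspa12a, Slc25a28 and Lemd2. Still, 593 of the 737 members stood alone.

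Genes with a MEF-only promoter bin often had further MEF bins along the gene. Leaving out each gene's own promoter bins, 198 of the 797 had another MEF-listed bin in the body (24.8% [21.9% to 28.0%]), against 10.5% of all genes. Since longer genes hold more bins, genes were split into 5 groups by length. In the longest group the share was 59.8% [52.7% to 66.6%] against 33.5% of all genes, and in the next longest it was 25.8% [19.06% to 33.6%] against 11.3%. ES-listed bins in the body were also found in more of them, 49.5% [42.5% to 56.6%] against 38.7% in the longest group. The counts of MEF body bins come from the same pair of libraries as the members. Prkce, the protein kinase C epsilon gene, led with 20 further MEF bins and 8 ES bins. Cacna1c, the pore subunit gene of a voltage-gated calcium channel, had 11 and 1, and Ext1 11 and 2. Pknox2, a homeobox gene, had 10 and 1, and Zfp423 and Thsd4 had 9 and 2 each. Edar, the ectodysplasin receptor gene, was shorter at 74866 bp and had 7 and 0.

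Chromosomes differed in how many of their promoter bins were members. Chromosome 15 had the highest share, with 58 of 1115 promoter bins (5.20% [3.97% to 6.67%]), Fbln1, Wnt10b, Acvr1b, Hoxc11, Krt7, Ext1, Hdac7 and Rictor among their genes. It was also highest for ES-only promoter bins, with 55 (4.93% [3.74% to 6.37%]). Chromosome 19 had 3.64% [2.56% to 5.00%]. Chromosome 7 had 27 of 2799 (0.965% [0.637% to 1.40%]) although 87 of the same bins, 3.11%, were on the ES-only list. Chromosome X had 3 of 1401, at Gpc3, Zcchc5 and Gm14808, and 4 ES-only ones. The other autosomes ran from 1.41% on chromosome 12 to 3.09% on chromosome 5. These shares followed those of MEF-only bins outside promoters, which were 2.96% on chromosome 15, 4.13% on 19, 1.00% on 7 and 0.158% on X. Across the 20 chromosomes Pearson's r was 0.84 and Spearman's rho 0.88, and without chromosomes X and 15 they were 0.85 and 0.84. Against the ES-only share of promoter bins r was 0.79 and rho 0.61 over the 20, and 0.51 and 0.46 without X and 15. The points share the libraries, so this is a description.

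**Figure D5:**
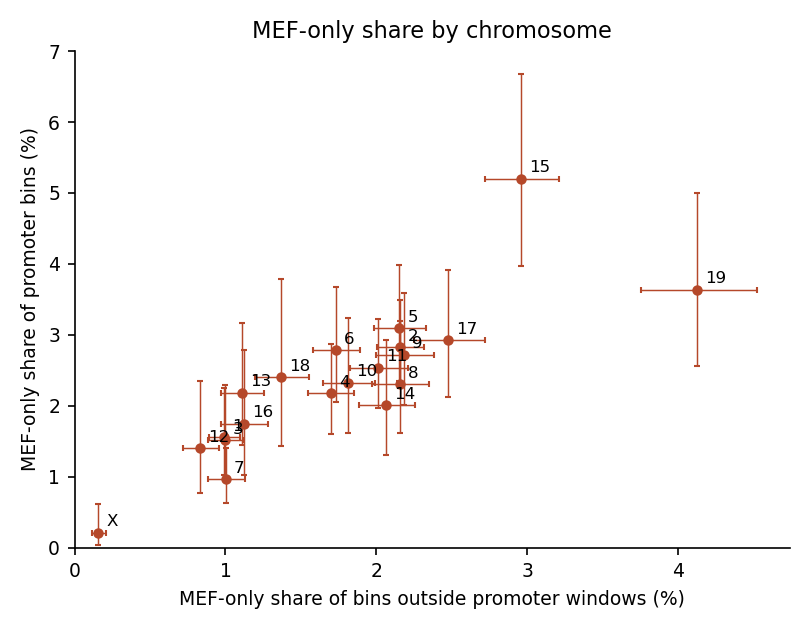
MEF-only share of promoter bins (y axis, %) against the MEF-only share of other bins (x axis, %), 1 point per chromosome with exact 95% binomial intervals. Chromosome 15 stands highest at 5.20%, chromosome 19 lies farthest right at 4.13%, and chromosome X is lowest on both axes.

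By type, 630 of the 797 genes were protein-coding, 46 were lincRNAs and 121 were processed transcripts, which are noncoding models. The last made up 15.2% [12.8% to 17.9%], against 9.82% of all genes and 11.6% of genes with an ES-only promoter bin. Head-to-head pairs, with 2 starts on opposite strands within 1000 bp and pointing apart, held 55 of the 797 (6.90% [5.24% to 8.89%]) against 9.60% of all genes and 7.58% of those with an ES-only bin. A bin with several starts cannot be assigned to 1 gene. One such bin (chromosome 9, 50555001 to 50560000) reached the small heat shock genes Hspb2 and Cryab and 2310030G06Rik, and another (chromosome 18, 38760001 to 38765000) reached Spry4, Arhgap26 and 9630014M24Rik.

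The 250 bases before the start were searched for 4 short motifs on both strands in the 556 member genes whose stretch lay wholly in the altered bin. A match anywhere in the stretch was counted, so these are counts of short words and need not be working promoter elements. TATAAA, the word of the TATA box, was in 46 of the 556 (8.27% [6.12% to 10.9%]) and in 12.1% of all 26031 genes. ES-only promoters were as low with 8.04%. Within the low CpG class it was in 12.3% [7.87% to 18.01%] against 21.2%, and in 10.1% [6.28% to 15.17%] at ES-only promoters of that class. The CCAAT box CCAAT was in 27.5% [23.8% to 31.4%] against 34.6%, with 30.9% at ES-only promoters. The GC box GGGCGG was in 38.1% against 37.2%, and the E-box CACGTG in 7.37% against 6.34%, both with intervals that hold the share of all genes. Within the low CpG class the GC box was in 12.8% [8.32% to 18.65%] against 7.66% of all low-class genes, and in 9.60% [5.88% to 14.6%] at ES-only promoters of that class. Only 18 of the 556 had no CpG in this stretch, as the Mmp12 sequence above (3.24% [1.93% to 5.07%] against 7.57% of all genes and 2.04% of ES-only ones). In the low CpG class 9.50% had none [5.63% to 14.8%], against 19.97% of all low-class genes and 6.06% [3.17% to 10.35%] of ES-only ones. The median of the 556 was 7 CpG, as over all genes.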

How the data were processed

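5hmC capture libraries of 4 groups, 1 library each, underlie the lists. BWA and SAMtools 1.3.1 on mm9 are named, without their role, per the submitters' processing notes. Counting, caller and threshold were not given in the sources used here. Deposited values are of a kind other than levels: chromosome, start, end and running number of each 5 kb bin called differential. Bin numbers of 8545 ES and 8972 MEF bins on chromosomes 1 to 19 and X matched NCBIM37 (mm9). Bins elsewhere (12 ES, 30 MEF) were not used, nor those more than 50% undetermined in sequence. Positions are 1-based.

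Genes were 26031 GENCODE M1 protein-coding, lincRNA and processed transcript models, the longest kept for a repeated name. Repeats were measured as 32-base words occurring more than once, in a sample of 1 in 64. Members and lists were chosen with earlier results of these data known. Genes named were those of the lists with a member, the longest runs, bins with most starts, CpG extremes and genes with 2 member bins; the choice of body bins, paired bins and printed sequences among these came later. Symbols missing from the annotation were matched through RefSeq synonyms, for names only. Overlap code was compared with a brute-force overlap at a random sample of the genes, and no gene differed. In 20 further runs simulated lists were drawn from bins already marked as promoter bins or others. Their counts were fixed by the design, so those runs do not test the overlap code. The alternatives were other promoter windows, gene sets, overlap and neighbour rules. The tools were pysam 0.24.0, matplotlib 3.10.9, scipy 1.17.1, numba 0.67.0, numpy 2.4.6 and pandas 2.3.3 under Python 3.11.15.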

Additional observations from a re-analysis of the deposited data

How the results depend on the processing

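Over 7 main values and 48 alternative values of them, 36 stayed within the interval of the main value or, for counts, within 1.5 times it, and 12 moved. Taking every annotated transcript start gave 1224 member bins, a median of 14.6 CpG per kb, 31.9% of the high CpG class and 65 list genes in place of 40. With protein-coding genes only the median was 17.6 and the high share 51.2%. The median was 16.8 with windows of 500 bp, 14.6 with 2 kb and 17.8 where the start had to lie in the bin. CpG island limits put 67.8% of members at an island, neighbours within 2 bins gave 28.6%, and leaving out members beside an ES bin gave 2.08% of promoter bins. The share of pairs with the bin centre downstream ran from 55.2% to 58.2%. Without the bins of over 50% repeated words, an alternative chosen after seeing the data, 725 members remained, 18.5% of them beside a MEF bin. For single lists 15 of 42 alternative counts moved. Both alternatives used there, 2 kb windows and every transcript start, only add to the promoter windows, so no count could fall. Extracellular matrix genes went from 3 to 5 with 2 kb windows and to 6 with every transcript start, and imprinted genes from 1 to 3 and 4. All member bins rose too, to 916 and 1224, and the share of all genes in these settings was not calculated. No paired analysis was possible because each group has 1 library. Depth is unknown, so bins where no change could be detected cannot be told apart from unaltered ones.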

Other observations

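Several gene families that were not themselves among the lists above had more than 1 promoter among the members. They were picked after the members were seen, so their counts are descriptions and get no test. Over all genes 3.06% had a MEF-only promoter bin and 4.10% an ES-only one. Of 26 genes for subunits of voltage-gated calcium channels, 5 had a MEF-only promoter bin (19.23% [6.555% to 39.35%]) and 0 an ES-only one. With 26 genes the ES-only count is too small to be read as a difference between the lists. Cacna1c (chromosome 6, 119145001 to 119150000) and Cacna1d (chromosome 14, 31305001 to 31310000, wholly upstream) encode pores of L-type channels. Cacna1g (chromosome 11, 94335001 to 94340000) and Cacna1h (chromosome 17, 25565001 to 25570000, wholly inside the gene) encode pores of T-type channels, and Cacnb1 (chromosome 11, 97880001 to 97885000) encodes a beta subunit. The windows of the L-type genes held 15.0 and 13 CpG per kb, and those of the T-type genes 65.0 and 91.0.

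Of 12 protein kinase C and D genes 3 were members, namely Prkcd (chromosome 14, 31435001 to 31440000), Prkce (chromosome 17, 86565001 to 86570000) and Prkd1 (chromosome 12, 51745001 to 51750000), while Prkd2 had an ES-only bin. Of 20 semaphorin genes, which encode guidance cues for axons and vessels, 3 were members (15.0% [3.21% to 37.9%]). These were Sema3a, Sema4g and Sema7a, and Sema6b had an ES-only bin. Of 8 genes for C1q and TNF related secreted proteins 3 were members (C1qtnf1, C1qtnf5 and C1qtnf7), and of 6 for MICAL and MICAL-like actin regulators 3 (Mical2, Micall1 and Micall2). Of 13 S100A genes 3 were members (23.1% [5.04% to 53.8%]). S100a3 and S100a4 shared 1 bin, already given above with the extracellular matrix and fibroblast list that holds S100a4, and S100a16 had another. The secreted ligand Gas6 (chromosome 8, 13490001 to 13495000) and its receptor Tyro3 (chromosome 2, 119620001 to 119625000) were also noticed among the members, with windows of 46.5 and 12.5 CpG per kb.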
